A study of Mus musculus with 4 samples.

Results

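Lifr, Il6st, Prlr, Jak1, Jak2, Tyk2, Stat3, Stat5a and Socs3 encode receptors, kinases, transcription factors and a feedback inhibitor of Lif and Jak-Stat signalling. These 9 genes were taken by symbol from a table of 37310 genes, and all 9 had values high enough to be tested. They were followed in mRNA-seq of mouse embryonic stem cells (mESCs) of the JM8 line, which was derived from the C57BL6/N strain. The series holds 4 libraries, 2 from wild-type cells and 2 labelled Bmal1-/-, called mutant-labelled below. The mutant cells are 1 clone made with CRISPR/Cas9, with frameshift indels in both alleles of Bmal1, the clock transcription factor gene, so that clone and genotype cannot be told apart. All cultures, of both labels, grew without feeders in serum-free N2B27 medium with LIF and the inhibitors PD0325901 (1 µM, against Mek) and CHIR99021 (3 µM, against Gsk3), known as 2i + LIF.

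Lif is a cytokine that keeps mESCs undifferentiated. It binds Lifr, which pairs with the shared signalling chain gp130, encoded by Il6st. Neither chain is an enzyme: Jak kinases bound to their tails phosphorylate them, Stat3 docks there, is phosphorylated in turn and enters the nucleus. Stat3 then activates pluripotency genes and also Socs3, whose protein binds gp130 and the Jak kinases and shuts the signal down. Prlr, the prolactin receptor, is a single-chain receptor that signals through Jak2 and Stat5a and is best known from the mammary gland.

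The deposited values are read counts divided by a scaling factor of the library, called normalized values here, and could be turned back into whole reads. Libraries held 21504265 to 23329034 reads on genes, and a normalized value of 1 is close to 1 read. The targeted gene, listed as Arntl, was at normalized values of 678 and 733 in the wild-type pair and of 556 and 590 in the mutant-labelled pair. It passed as lower (limma log2 fold change -0.30 ± 0.07, adjusted p = 0.0011, a call that held in each of the 16 other settings), at 81.2% of wild-type. The mRNA was thus present under both labels, and its level alone does not identify the genotype. The 10 pluripotent cell markers examined were tested and present in all libraries, with a summed normalized value of 98589 to 99754 in wild-type and of 98650 to 99785 in the mutant-labelled pair. These sums hide changes in both directions, since 3 of the 10 passed as higher and 6 as lower, with log2 fold changes from -0.95 to 0.36. Of 10 two-cell-like markers 8 were found in the table, and their sum was 202 to 257 against 2699 to 2736. All 7 that were tested passed as higher, with log2 fold changes from 3.23 to 3.79. The 10 primitive endoderm markers summed to 619 to 651 against 736 to 773, with 3 of the 5 tested higher and 1 lower (log2 fold changes from -2.41 to 1.27). The 10 trophoblast markers summed to 1558 to 1565 against 668 to 695. Of these 4 were tested, 1 higher and 2 lower, with log2 fold changes from -1.36 to 0.58. The 10 fibroblast markers summed to 1605 to 1683 against 1675 to 1744, with 1 of the 4 tested higher and none lower. Prl3d1 and Prl2c2 of trophoblast and Dcn and Lum of fibroblasts were listed at 0 in every library. The part of these other states in the results was not tested.

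Differences were tested with limma on log2(normalized value + 1) over 14510 genes with a mean of at least 10, and a gene passed with a Benjamini-Hochberg adjusted p-value under 0.05. By this test 6 of the 9 genes differed, 2 higher and 4 lower in the mutant-labelled pair. Over all genes tested, 24.0% passed as higher and 28.6% as lower, 52.6% in all. Prlr, a gene of few reads, passed the filter only through its wild-type level, and without it 5 of 8 genes passed. Jak2 and Jak1 rose, Socs3, Lifr and Stat3 fell slightly, and Prlr fell from a low level. Prlr alone was past 2-fold, on the lower side, where 1.45% of all genes tested lay (5.75% on the higher side and 7.21% in all). The values of the labels did not overlap for 7 of the 9 genes, 2 higher and 5 lower, beside 34.6% and 41.4% of all genes tested, or 76.0% in all. The median log2 fold change of the 9 genes was -0.11, beside -0.03 over all genes tested. In bulk RNA, fewer cells that carry a transcript and less of it per cell cannot be told apart.

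**Figure D1:**
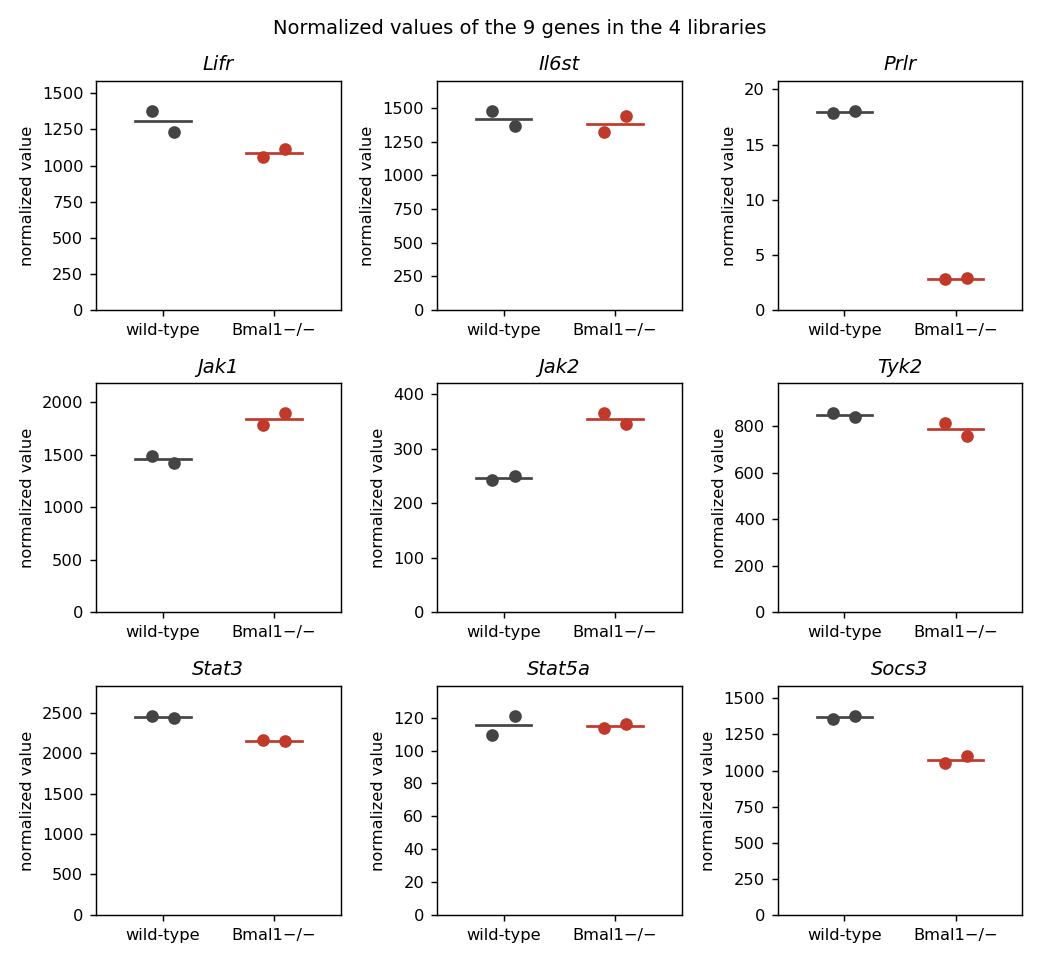
Normalized values of each of the 9 genes (vertical axis from 0, a scale of its own per gene) in the 2 wild-type libraries (grey) and the 2 mutant-labelled libraries (red), with the mean as a bar. The labels overlap for Il6st and Stat5a, and the largest relative gap is that of Prlr, from 17.9 and 18.1 to 2.82 and 2.86.

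The receptor chains were examined first. Lifr (ENSMUSG00000054263, chromosome 15 from 7079559 to 7147489 in mm9) was at normalized values of 1378 and 1233 in the wild-type pair and of 1060 and 1114 in the mutant-labelled pair. Both wild-type values lay above both others. In limma this was -0.26 ± 0.06 (log2 fold change ± SE, adjusted p = 0.0010), or 83.2% of the wild-type mean. The call was lost without an intensity trend in the variance (adjusted p = 0.078) and with no filter on low values (adjusted p = 0.065).

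Il6st (ENSMUSG00000021756, chromosome 13 from 113265216 to 113297068) encodes the chain that most cytokines of the Il6 family use. It had 1480 and 1366 in the wild-type pair and 1324 and 1444 in the mutant-labelled pair, so that the labels overlapped. The log2 fold change of -0.04 had a 95% interval from -0.16 to 0.08 (adjusted p = 0.58 from limma). A change of Il6st beyond these bounds was thus not seen, while one within them remains possible. Per kilobase of merged exons, Il6st stood 2.13 and 2.20 times as high as Lifr in the wild-type pair and 2.48 and 2.57 times as high in the mutant-labelled pair.

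Prlr (ENSMUSG00000005268, chromosome 15 from 10106993 to 10303504) was the lowest of the genes. Each wild-type library held 17 reads and each mutant-labelled library 3, or normalized values of 17.9 and 18.1 against 2.82 and 2.86. The summed reads put the mutant-labelled pair at 15.8% of wild-type, with an exact 95% interval from 5.42% to 38.0% that covers counting error only. Limma gave -2.31 ± 0.47 (log2 fold change ± SE, adjusted p = 3.5e-04). Prlr was tested only through its wild-type level, so that this call is not independent support for a fall. The size rests on the scale: it was -1.12 with a pseudocount of 10 and -3.43 with quantile normalization, and with each library left out it lay between -2.31 and -2.30. Even in wild-type cells the level was small, at the 9.54 percentile of all genes tested.

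RefSeq lists 3 start sites of Prlr (GRCm38.p6), and the table sums reads over the whole gene, so that the start in use is not resolved. Of 13 windows of 250 bases before the starts of the 9 genes, all of which matched by symbol, 2 held the palindrome TTCNNNGAA that Stat proteins bind, and none the E-box CACGTG that Bmal1 and Clock bind, searched on both strands. Among all 32851 such windows of RefSeq genes, 7.02% held the first and 6.02% the second. The windows with a match lay before the second listed start of Prlr (chr15:10223656-10223905, plus strand) and before Socs3 (chr11:117969367-117969616, minus strand). They are shown because these genes had the strongest fall and the role of feedback inhibitor, with the match in capitals, 110 bases before the start of Prlr and 154 before that of Socs3. A match describes the letters and is not a binding site.
Prlr: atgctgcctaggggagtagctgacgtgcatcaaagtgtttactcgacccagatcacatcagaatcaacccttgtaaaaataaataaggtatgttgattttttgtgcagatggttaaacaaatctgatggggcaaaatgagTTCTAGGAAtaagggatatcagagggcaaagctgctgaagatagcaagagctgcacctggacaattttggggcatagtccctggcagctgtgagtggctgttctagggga
Socs3: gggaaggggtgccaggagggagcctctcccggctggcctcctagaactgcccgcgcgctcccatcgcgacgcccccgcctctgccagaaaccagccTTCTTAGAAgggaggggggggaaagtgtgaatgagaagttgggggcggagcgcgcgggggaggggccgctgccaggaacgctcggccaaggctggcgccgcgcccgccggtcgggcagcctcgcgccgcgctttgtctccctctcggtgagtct

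Among the kinases, Jak1 and Jak2 rose. Jak1 (ENSMUSG00000028530, chromosome 4 from 100824972 to 100937887), the main kinase at gp130, had values of 1489 and 1417 in the wild-type pair and of 1783 and 1891 in the mutant-labelled pair. The labels did not overlap, and limma gave 0.34 ± 0.05 (log2 fold change ± SE, adjusted p = 1.6e-05). Jak2 (ENSMUSG00000024789, chromosome 19 from 29326318 to 29387570) serves single-chain receptors such as Prlr and also binds gp130. It rose from 243 and 251 to 364 and 345, which limma put at 0.52 ± 0.09 (log2 fold change ± SE, adjusted p = 6.5e-05), or 144% of the wild-type mean. Both calls held in each of the 16 other settings tried.

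Tyk2 (ENSMUSG00000032175, chromosome 9 from 20908521 to 20931790), which also binds gp130 and is known for interferon signalling, had values of 855 and 838 in the wild-type pair. The mutant-labelled pair had 815 and 757, just below them. The log2 fold change of -0.11 had a 95% interval from -0.24 to 0.02 (adjusted p = 0.16 from limma) and did not pass the test. The fourth kinase, Jak3, which pairs with the common gamma chain of lymphoid cytokine receptors, is outside the 9 genes. It fell from 1683 and 1584 to 643 and 648, which limma put at -1.34 ± 0.06 (log2 fold change ± SE, adjusted p = 1.2e-13).

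Levels of the kinases were compared per kilobase of merged exons. In the wild-type pair Jak3 stood at 314 and 296, Jak1 at 206 and 196, Tyk2 at 186 and 182 and Jak2 at 48.4 and 49.8 normalized values per kilobase. In the mutant-labelled pair the order was Jak1 (247 and 262), Tyk2 (177 and 164), Jak3 (120 and 121) and Jak2 (72.5 and 68.6). Jak1 thus made up 27.2% of the per-length sum of the 4 kinases in wild-type and 41.3% in the mutant-labelled pair, and Jak2 6.65% and 11.5%. The sum itself was 754 and 723 against 616 and 615. These shares are descriptions, with no test, and were given as means of 2 libraries.

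**Figure D2:**
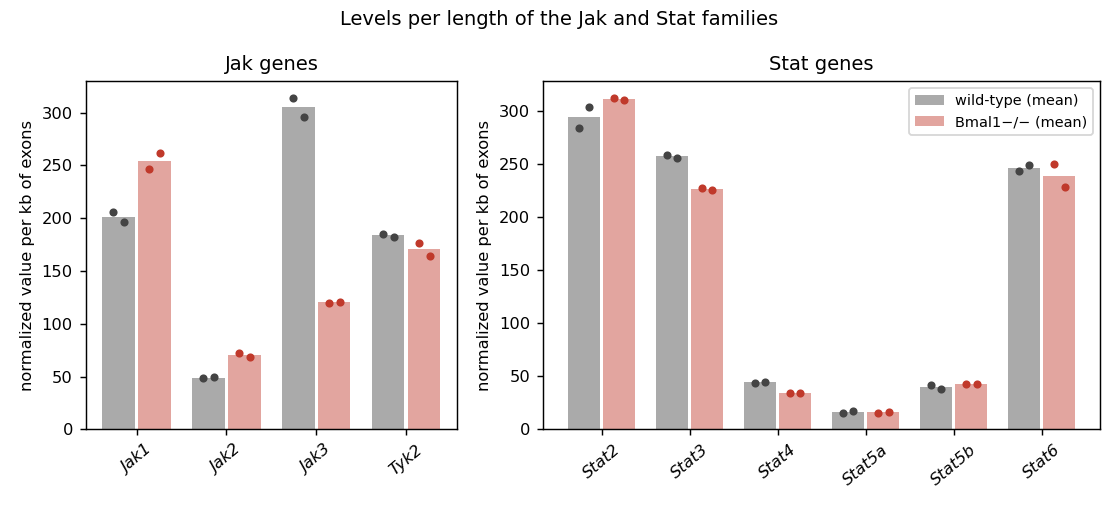
Normalized value per kilobase of merged exons (vertical axes from 0) for the Jak genes (left) and 6 Stat genes (right), with bars for the mean and points for the 2 libraries of each label. Jak3 stood highest among the kinases in wild-type (314 and 296) and Jak1 in the mutant-labelled pair (247 and 262), while Stat3 moved from 258 and 255 to 227 and 226.

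Of the transcription factors, Stat3 fell slightly and Stat5a did not pass the test. Stat3 (ENSMUSG00000004040, chromosome 11 from 100746412 to 100800854) carries the Lif signal to the nucleus. It had values of 2460 and 2433 in the wild-type pair and of 2162 and 2148 in the mutant-labelled pair, with no overlap and little spread. In limma this was -0.18 ± 0.05 (log2 fold change ± SE, adjusted p = 0.0020), or 88.1% of the wild-type mean. Without the intensity trend the adjusted p was 0.058.

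Stat5a (ENSMUSG00000004043, chromosome 11 from 100720665 to 100746483), which acts downstream of prolactin, had values of 110 and 121 in the wild-type pair and of 114 and 116 in the mutant-labelled pair. The latter lay between the wild-type values. The log2 fold change of -0.0024 had a 95% interval from -0.29 to 0.29 (adjusted p = 0.99 from limma), so that changes within these bounds remain possible. Its close relative Stat5b had 234 and 210 against 239 and 237 (limma log2 fold change 0.10, adjusted p = 0.43). Stat3 and Stat5a meet tail to tail and share 72 bases on opposite strands. The libraries were stranded, but whether the counting used the strand is not stated, so that reads from the shared bases cannot be assigned with certainty.

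Per kilobase of merged exons Stat3 held 28.6% of the sum of the 6 Stat genes compared in the wild-type pair and 26.0% in the mutant-labelled pair, and Stat5a 1.80% and 1.85%. The sum was 887 and 907 against 882 and 857 normalized values per kilobase. Among the other Stat genes, Stat4 had a log2 fold change of -0.36 (adjusted p = 0.029 from limma). This call was lost with any of the 4 libraries left out, at adjusted p-values from 0.055 to 0.11.

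The feedback inhibitor Socs3 (ENSMUSG00000053113, chromosome 11 from 117827393 to 117831361) had values of 1360 and 1379 in the wild-type pair. The mutant-labelled pair had 1050 and 1100, both below. In limma this was -0.35 ± 0.05 (log2 fold change ± SE, adjusted p = 1.8e-05), or 78.5% of the wild-type mean, and the call held in each of the 16 other settings. Per kilobase of merged exons, Socs3 was the highest of the 9 genes under both labels, at 474 ± 4.59 in the wild-type pair and 372 ± 12.3 in the mutant-labelled pair (SD, n = 2 each).

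In the wild-type pair Il6st (273 ± 15.5 normalized values per kilobase, SD, n = 2) and Stat3 (257 ± 2.02) followed Socs3 and differed from each other by little more than the spread of Il6st. Jak1 (201 ± 7.0), Tyk2 (184 ± 2.65), Lifr (126 ± 9.90), Jak2 (49.1 ± 1.03), Stat5a (16.2 ± 1.14) and Prlr (1.16 ± 0.00682) came next in this order. In the mutant-labelled pair Il6st (266 ± 16.3) and Jak1 (254 ± 10.6) lay within their spread of each other, ahead of Stat3 (226 ± 0.97). Merged exons take in every annotated transcript, so that genes with long alternative ends read lower on this scale.

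**Figure D3:**
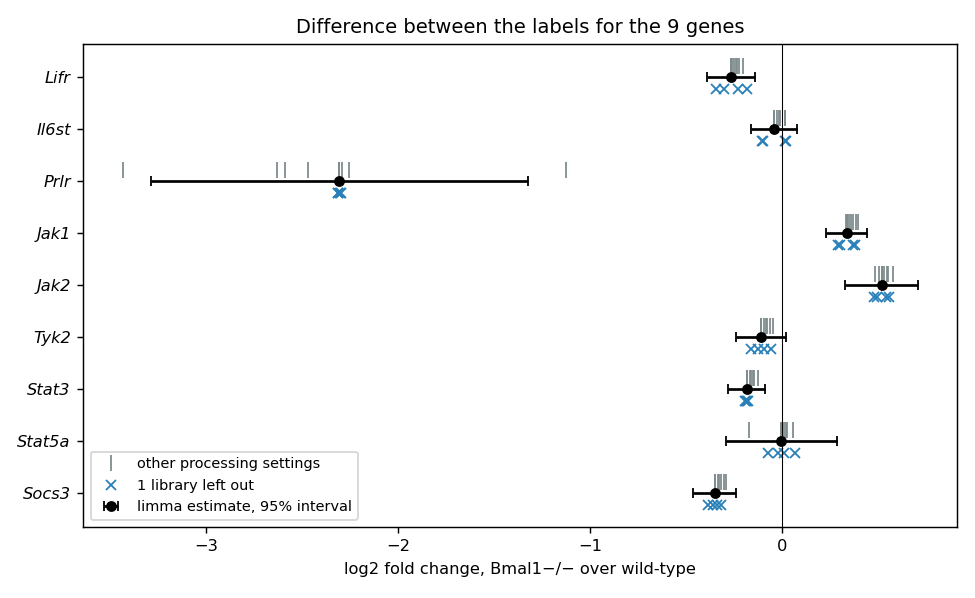
Log2 fold change of the 9 genes (horizontal axis, mutant-labelled pair over wild-type) with the 95% interval from limma, grey ticks for other processing settings and blue crosses for fits with 1 library left out. Il6st, Tyk2 and Stat5a have intervals that take in 0, and Prlr is spread from -3.43 to -1.12 by the settings.

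Other genes of the pathway were taken from 7 lists written by hand, with 89 genes of which 63 were tested. Of these, 15 passed as higher (23.8%) and 16 as lower (25.4%), shares close to those of all genes tested, with a median log2 fold change of -0.04. Without the second mutant-labelled library 9 passed as higher. Past 2-fold, 2 were higher and 3 lower, beside 5.75% and 1.45% of all genes tested. The lists below are described by such counts, with no test of a list as a whole.

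Cytokines of the gp130 family and their receptor chains had 10 of 17 genes tested, 2 higher and 2 lower, with a median log2 fold change of 0.03. Ctf2, a cytokine related to cardiotrophin, had values of 17.9 and 17.0 in the wild-type pair and of 92.1 and 86.8 in the mutant-labelled pair. This was the larger of the list's 2 rises (limma log2 fold change 2.29 ± 0.22, adjusted p = 4.2e-08). Ctf1, cardiotrophin 1, moved the other way, from 109 and 97.7 to 56.4 and 50.5 (limma log2 fold change -0.94, adjusted p = 1.1e-04). Ctf1 (up to 134861699, plus strand) and Ctf2 (from 134861620, minus strand) overlap at their ends on chromosome 7. Whether the counting used the strand is not stated, so that reads from the shared bases cannot be assigned with certainty. Osm, oncostatin M, named after its value was seen, was the other lower gene at -0.35 (adjusted p = 0.0014 from limma).

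Lepr, the leptin receptor, had 10.5 and 14.9 against 23.5 and 26.7 (limma log2 fold change 0.94, adjusted p = 0.022), with an adjusted p of 0.18 in DESeq2 and of 0.070 to 0.14 without either mutant-labelled library or without the first wild-type library. Lif itself was transcribed, at 248 and 286 in the wild-type pair and 232 and 220 in the mutant-labelled pair, and did not pass the test (limma log2 fold change -0.23, adjusted p = 0.063, but 0.011 without the first wild-type library). The medium also supplied LIF. Osmr, the other partner of gp130 for oncostatin M, had no more than 2 reads in any library.

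Ligands and receptors of the prolactin type had 3 of 10 genes tested, and 5 of the 10 held no more than 3 reads in any library, Prl itself among them. Thpo, thrombopoietin, had 35.8 and 34.0 in the wild-type pair against 18.8 and 15.3 (adjusted p = 0.0054 from limma; 0.10 in DESeq2 and 0.052 without the second mutant-labelled library). Csf3r, the receptor of granulocyte colony stimulating factor, rose from 89.5 and 98.8 to 162 and 188 (limma log2 fold change 0.88 ± 0.14, adjusted p = 1.7e-05). Ghr, the growth hormone receptor and a relative of Prlr, was among the 7 genes of the list under the filter. It is outside the rule for named genes given below, and no such values are given for the others. Ghr had 27 reads in the wild-type pair together and 11 in the mutant-labelled pair. On these reads it stood at 36.4% of wild-type (exact 95% interval 16.3% to 75.9%, counting error only).

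Chains of interferon and interleukin receptors that as a whole use Jak1 or Tyk2 had 9 of 12 genes tested, 2 higher and 2 lower. Their median log2 fold change was -0.04, and the 2 lower chains bind other Jak kinases, as given below. Il2rg, the common gamma chain that binds Jak3, had a log2 fold change of -0.95 (adjusted p = 0.011 from limma; 0.19 without the second mutant-labelled library and 0.14 in DESeq2). Ifngr2, a chain of the interferon gamma receptor that binds Jak2, fell from 59.0 and 53.1 to 31.9 and 31.5 (limma log2 fold change -0.80, adjusted p = 0.0042; 0.092 in DESeq2). Il13ra1 rose from 126 and 120 to 178 and 172 (limma log2 fold change 0.50, adjusted p = 0.0019). Il10rb, with 0.70 (adjusted p = 0.040 from limma), lost its call when either mutant-labelled library or the first wild-type library was left out (adjusted p = 0.095 to 0.21).

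Negative regulators had all 16 genes tested, 3 higher and 3 lower, with a median log2 fold change of 0.02. Socs2, an inhibitor induced by Stat5 and by Lif, fell from 1151 and 1125 to 805 and 796 (limma log2 fold change -0.51 ± 0.06, adjusted p = 3.4e-07). Cish, a Stat5 target of the same family, had 46.4 and 62.7 against 34.8 and 39.1 (limma log2 fold change -0.54, adjusted p = 0.0496), a call lost in 10 of the 15 other settings that gave a value, among them the fits without either mutant-labelled library or without the second wild-type library (adjusted p = 0.093 to 0.34). Ptpn6, the phosphatase Shp1, fell from 770 and 835 to 533 and 491 (limma log2 fold change -0.65, adjusted p = 2.0e-07). Pias2, which binds Stat proteins in the nucleus, rose from 4758 and 4681 to 5600 and 5822 (limma log2 fold change 0.27, adjusted p = 1.1e-05). Socs3 fell, as did Socs2, and the remaining Socs genes, apart from Socs4 at 0.19 (adjusted p = 0.022 from limma), did not pass the test.

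**Figure D4:**
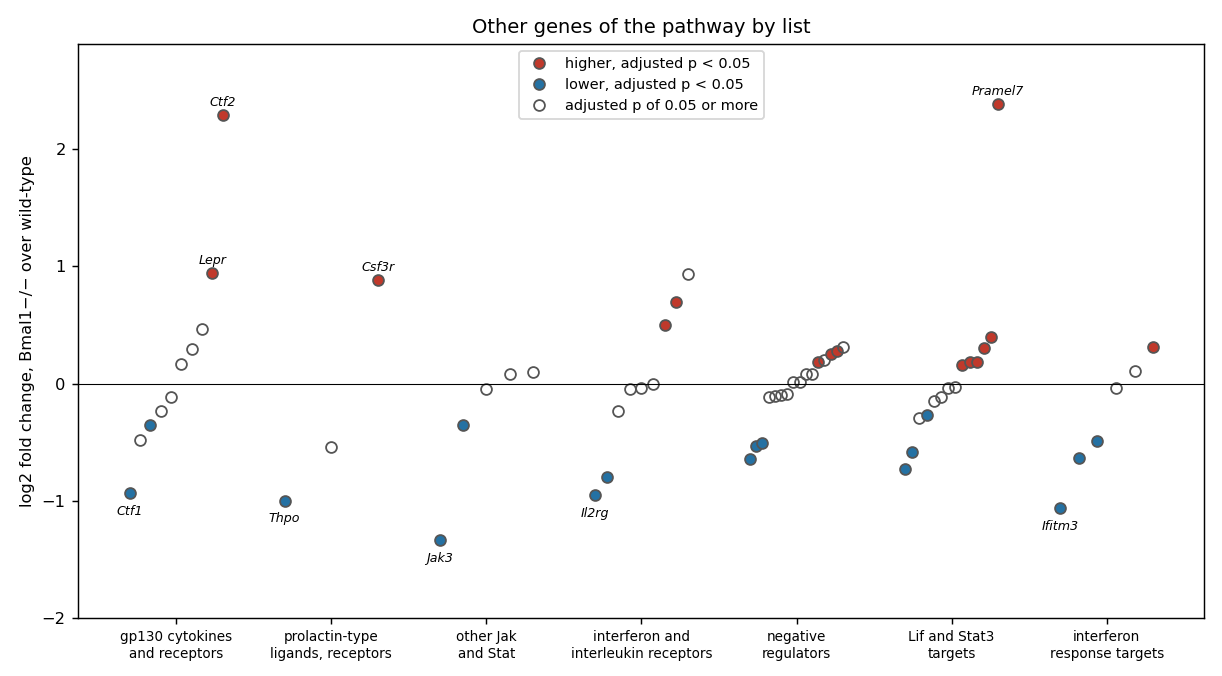
Log2 fold change (vertical axis, mutant-labelled pair over wild-type) of the 63 tested genes of the 7 lists, 1 point a gene, filled red or blue where it passed as higher or lower and open where it did not; genes past 0.85 are named where they passed. Each list except that of the other Jak and Stat genes holds filled points of both directions, and Pramel7 (2.39) and Ctf2 (2.29) lie highest.

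Targets of Lif and Stat3 had all 14 genes tested, 6 higher and 3 lower, with a median log2 fold change of -0.03. Pramel7, a member of the PRAME family that holds mESCs in the naive state, rose from 631 and 699 to 3466 and 3492 (limma log2 fold change 2.39 ± 0.06, adjusted p = 1.1e-17). Copies of this family are similar and can share reads, so that its value is uncertain. Tfcp2l1, listed as Tcfcp2l1, a naive pluripotency factor directly below Stat3, rose from 27883 and 25102 to 34380 and 35269 (limma log2 fold change 0.40, adjusted p = 2.4e-07). The higher genes also included Klf4, Klf5, Mcl1 and Pim1, at 0.16 to 0.31, named after their values were seen.

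Myc, the growth regulator, fell from 169 and 175 to 107 and 100.1 (limma log2 fold change -0.73 ± 0.13, adjusted p = 8.1e-05). Junb, an immediate response factor, fell from 197 and 211 to 139 and 133 (limma log2 fold change -0.58, adjusted p = 2.8e-04). The third lower gene was Bcl3, at -0.27 (adjusted p = 3.2e-04 from limma). Gbx2, Pim3, Sbno2, Ier3 and Cebpb did not pass the test. Socs3, also a Stat3 target, was thus on the side of Myc and Junb and opposite to Tfcp2l1.

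Interferon response targets had 6 of 15 genes tested, 1 higher and 3 lower. Ifitm3, a membrane protein that restricts viral entry and is also abundant in germ cells, fell from 4358 and 4651 to 2255 and 2058 (limma log2 fold change -1.06 ± 0.05, adjusted p = 4.8e-13). Irf1 and Irf9 fell as well, with log2 fold changes of -0.64 (adjusted p = 7.4e-08 from limma) and -0.49 (adjusted p = 6.0e-06 from limma). Oas1a had 0.31 (adjusted p = 0.0069 from limma), a call lost without the first wild-type library and without the second mutant-labelled library (adjusted p = 0.084 for each). Of the 15 genes 6 held no more than 3 reads in any library, Ifit1, Ifit3 and Psmb9 among them.

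Several of the 9 genes share a chromosome with relatives. Lifr and Prlr are 3.03 Mb apart on chromosome 15, beyond the window of 500000 bases used below. Osmr starts 255246 bases from Lifr. Within 500000 bases of the start of Lifr 3 other genes were tested, 1 of them higher and none lower; of the 4 tested around Prlr, 2 were lower and none past 2-fold. Agxt2, which starts within Prlr, was listed at 0 in every library. Stat5b, Stat5a and Stat3 lie side by side on chromosome 11. Around Stat3, 37 genes were tested, 6 higher and 11 lower, and around Stat5a 39, 7 higher and 13 lower. These windows overlap. Over all genes tested, 24.0% passed as higher and 28.6% as lower.

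Among the genes tested, the same 4 passed and were past 2-fold in both windows, 2 higher and 2 lower. Of all genes tested, 5.75% were past 2-fold on the higher side and 1.45% on the lower. Ptrf, a caveolar coat protein gene that starts 31347 bases from Stat3, fell from 625 and 565 to 209 and 224 (limma log2 fold change -1.45 ± 0.09, adjusted p = 2.3e-11). Ramp2, a partner of the calcitonin receptor-like receptor, rose from 57.9 and 48.9 to 127 and 109 (limma log2 fold change 1.13, adjusted p = 1.3e-05). Vps25, which overlaps Ramp2 on the same strand, was under the filter, with 10 and 12 reads against 2 and 1, and was named after its values were seen. Reads of these overlapping genes may have been split between them, so that both values are uncertain. Ttc25 rose from 147 and 177 to 335 and 343 (limma log2 fold change 1.06, adjusted p = 7.0e-08). Kcnh4, with -1.09 (adjusted p = 0.022 from limma), passed the filter only through its wild-type level, with 15 and 24 reads against 11 and 8, and lost its call without the second wild-type library and without the second mutant-labelled library (adjusted p = 0.20 and 0.13).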

How the data were processed

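Stranded mRNA libraries of 2 wild-type and 2 Bmal1-/- cultures, called biological replicates by the study, were sequenced with paired reads. The authors aligned them with STAR 2.5.2b to mm9 after cutadapt 1.9.1 and deposited a signal per gene and library, the read count divided by a TMM (trimmed mean of M values) factor from NOISeq. The counting tool is not given in the sources used here. Dividing a library by its value of 1 read made 100% of its entries whole (within 0.01), which gave back the read counts.

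Limma 3.58.1 in R 4.3.3 (lmFit, eBayes with trend, 2-sided, no covariate) was fitted on log2(value + 1) to 14510 genes with a mean of at least 10. This scale understates changes of low genes. P-values measure only the spread between cultures of 1 line per label. The members, the gene lists and the rule for other named genes (up to 4 of each list by size of change among those that passed, all past 2-fold, neighbours past 2-fold or next to a member, and Stat5b, Lif, Osmr, Cish and Socs2) were chosen with earlier results of these data known. Scripts were tested on simulated data. Alternatives were 3 other filters, 2 pseudocounts, 3 scalings, no trend, a replicate block, each library left out (the lone library of a label then assumed to vary like the other label), and edgeR 4.0.16 (quasi-likelihood) and DESeq2 1.42.0 on whole reads. Names and mm9 positions come from GENCODE (NCBIM37), merged exon lengths likewise, and 3 list genes were matched by an older symbol. Promoter windows come from RefSeq (GRCm38.p6), in coordinates not comparable with mm9. Python 3.11.15 with scipy 1.17.1 gave exact intervals. Some genes of the lists are not reported here and enter none of the list counts. Reads were not reprocessed.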

Additional observations from a re-analysis of the deposited data

How the results depend on the processing

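Jak1, Jak2 and Socs3 kept direction and call in all 16 other settings, and Prlr in the 15 that gave it a value (a mean of at least 100 leaves it out). The wild-type level alone took Prlr past the main filter. Lifr, at -0.26, lost its call without the trend and with no filter on low values, and Stat3, at -0.18, without the trend, so that 2 members passed as lower without the trend and 3 with no filter. Il6st changed sign, with 0.0196 under equal library totals and 0.0158 under quantile normalization, and lay between -0.10 and 0.0219 with 1 library left out. Stat5a came to 0.0272 in DESeq2, 0.0202 in edgeR, 0.0575 with equal library totals and 0.0127 with median-ratio size factors, and to -0.074 to 0.0692 with 1 library left out. None of these values passed the test, and the cause was not tested.

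Pathway genes passing as higher numbered 9 to 16 with 1 library left out, beside 15, with 9 without the second mutant-labelled library. Over all genes, 2536 passed as lower in DESeq2 and 2515 without the trend, beside 4151. Past 2-fold, 835 were higher and 211 lower (79.8% higher). A mean of at least 100 gave 237 and 81, a pseudocount of 10 gave 135 lower, and quantile normalization 426 lower (58.1% higher). Without a fold threshold 45.7% were higher, and 56.8% with equal library totals. No scaling moved the median of all genes by over 0.1.

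Both labels carry the experiment numbers 1 and 2 in their titles, but no source says that a number is a shared day or batch. Same-numbered libraries deviated from their label means with a correlation of -0.02. With 2 libraries per label this is a single value, so that it cannot decide whether the numbers are pairs. With the number as a block, 3617 genes passed as higher and 4332 as lower, and the 9 genes gave the same 2 and 4.
For the 31 other named genes tested, 47 values in other settings lost the call, 2 gained it and 437 did neither. Depth limits Prlr, Ghr and Osmr, for which single reads move the value.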
